A study of Mus musculus with 30 samples.

Results

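The chemokine system was examined through 41 genes, 27 for chemokines and 14 for chemokine receptors, out of 19938 genes measured in spleen and lymph node of mice with and without an HIV-1 transgene. The members were taken by name: every gene whose platform symbol starts with Ccl, Cxcl, Ccr, Cxcr, Cx3cl, Cx3cr or Xcl and a number, apart from 10 genes left out by the rule (Ccl17, Ccl19, Ccl22, Cxcl9, Cxcl10, Cxcl12, Cxcl13, Ccr7, Cxcr4 and Cxcr5). The rule uses gene symbols and no measured value. The set is called inflammatory, but it also holds genes of steady-state traffic, such as Ccr9 and its ligand Ccl25, Ccr6, and the mucosal pair Ccl28 and Ccr10.

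Mice in 3 states were compared, each in both organs, with 1 array per organ and animal. FVB/N mice (n = 3) were the controls. Asymptomatic Tg26 mice (n = 6) and Tg26 mice with lymphoma (n = 6) were heterozygous for a provirus made from HIV-1 clone pNL4-3, from which part of gag-pol is missing, so that it yields no infectious virus. All animals shared the FVB/N background and were killed at between 5 and 12 months of age; ages per mouse were not analysed here. The Tg26 colony was bred from animals with skin lesions, and about 15% of it is stated to develop lymphoma. The labels name a batch A, with mice 1 to 3 of each state, and a batch B, with Tg26 mice 4 to 6 of either kind, so no control was in batch B. The spleen array of lymphoma mouse 4 carries the disease-status code otherwise given to FVB/N, while its title and description place it with lymphoma, as it was used here.

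Chemokines are small secreted proteins that bind heptahelical receptors coupled to inhibitory G proteins and steer the migration of leukocytes along gradients. One receptor often reads several ligands and one ligand several receptors, and which leukocytes enter a spleen or node depends on the receptors they carry. CXCR3, CXCR6 and CCR4 are carried mainly by activated and memory T cells and natural killer (NK) cells, CXCR2 by neutrophils, CCR2 by inflammatory monocytes, CCR3 by eosinophils, and CCR6 by mature B cells and some T cells.

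Values are log2 levels per gene, so a difference of 1 is a doubling, and levels are compared between samples and never between genes. Fitted differences come from limma with 6 surrogate variables, which are computed axes of unexplained variation, and a gene passed the test where its p, adjusted across the 19938 genes by the Benjamini-Hochberg method, was under 0.05. A fit without surrogate variables gives the plain difference of group means, and where a member's fitted difference departs from it by more than 1.5 times, both are given. The p-values measure the spread between arrays of a group that is left after the surrogate variables. Both organs of a mouse entered as independent arrays. The tissue is bulk, so fewer cells of a type and less RNA per cell cannot be told apart. In 10 arrays, transcripts of salivary gland, exocrine pancreas or adipose tissue and muscle had a list mean over 1 log2 unit above that list's median over all arrays: FVB/N nodes 2 and 3, asymptomatic spleens 4 and 5, asymptomatic nodes 2 to 6, and lymphoma node 5. Where the call of a member ends when these arrays are left out, this is said beside it. With them left out, FVB/N and asymptomatic nodes are each left with node 1 alone. A lost call that rests on either of these groups therefore decides nothing.

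Lymphoma mice had lower levels of several chemokine genes that T and NK cells carry or make, and 1 member, Ccr1, was higher in the fit. In spleen the mean of Ccr1 was 6.27 in asymptomatic and 6.47 in lymphoma mice. Its spleen call did not hold without surrogate variables or without lymphoma mouse 5. In spleen, 7 of 41 members were lower in lymphoma than in asymptomatic Tg26 mice (17.1%, against 7.25% of all genes) and 1 was higher (2.44%, against 8.58%); changes in either direction reached 19.5% of members and 15.8% of all genes. In lymph node, 11 of 41 were lower (26.8%, against 12.5%) and 1 was higher (2.44%, against 11.6%), together 29.3% of members and 24.1% of all genes. The median fitted difference over the 41 members was -0.26 in spleen and -0.10 in node, beside -0.03 and -0.02 over all genes. Receptors passed more often than ligands: 5 of 14 receptors and 3 of 27 ligands in spleen, and 7 of 14 and 5 of 27 in node, counts that are a description and were not tested against each other. Over all 10 comparisons, 20 of the 41 members passed at least once and 21 never did. The same share over all genes was not counted, so this does not set the members apart.

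**Figure D1:**
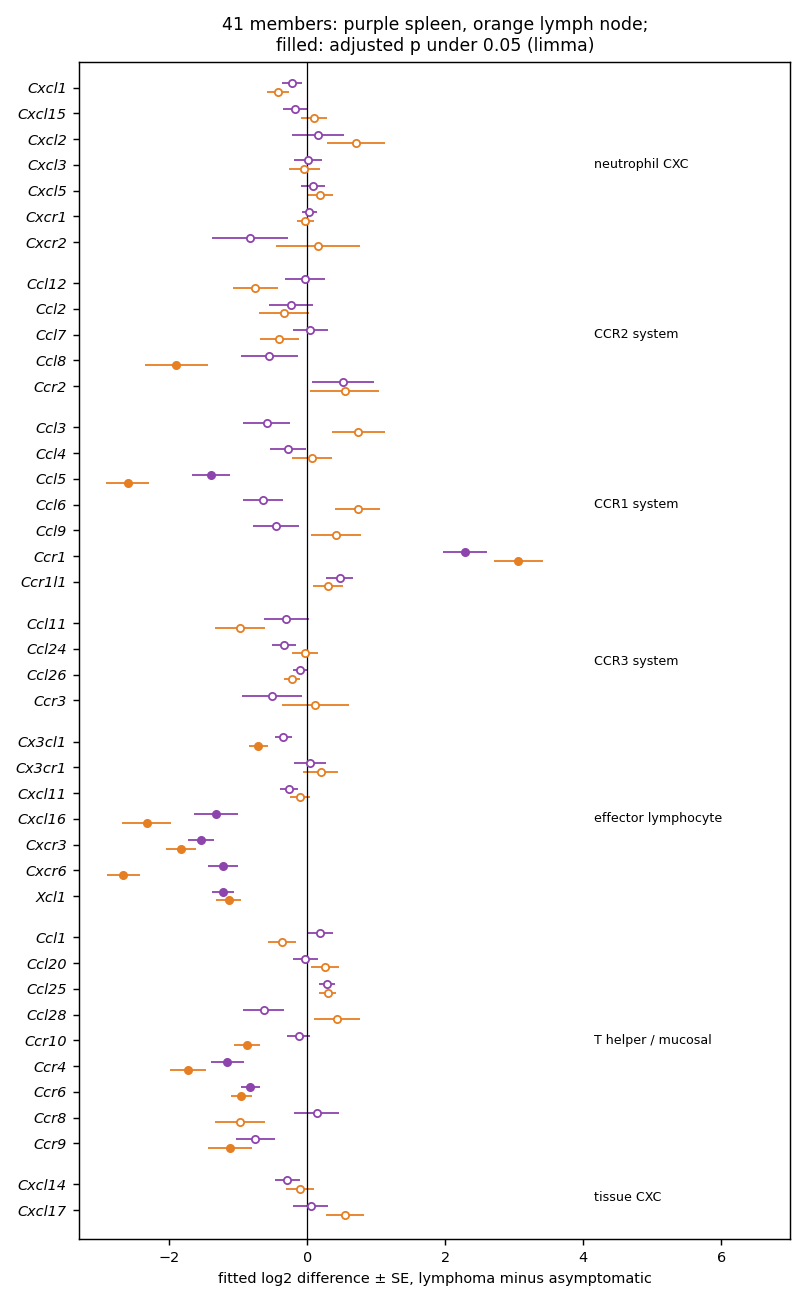
Fitted log2 difference (x axis, lymphoma minus asymptomatic Tg26, ± SE, n = 6 mice a group) for each of the 41 members in spleen (purple) and lymph node (orange), ordered by role on the y axis, with filled points for adjusted p under 0.05 in limma. Falls gather among Ccl5, Cxcl16, Cxcr3, Cxcr6, Xcl1 and Ccr4, and Ccr1 alone lies past the threshold on the right, with its largest value of 3.05 in node.

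Of the 7 members that serve effector lymphocytes, 4 fell in lymphoma spleen, namely Cxcr3, Cxcr6, Xcl1 and Cxcl16, and the same 4 with Cx3cl1 fell in node. None of the 7 was higher in limma. Cxcr3 encodes the receptor for interferon-induced chemokines on type 1 T and NK cells. In spleen its level was 9.13, 8.89 and 8.93 in the FVB/N mice, 8.53, 8.89 and 9.39 (lowest, median, highest) in asymptomatic mice and 6.48, 6.97 and 7.53 in lymphoma mice. Every lymphoma spleen lay below every spleen of the other states. The fitted difference from asymptomatic mice was -1.54 ± 0.19 (SE; limma, adjusted p = 4.25e-06). In node the controls read 10.10, 8.56 and 8.87, the asymptomatic mice 7.94, 8.52 and 9.0, and the lymphoma mice 6.31, 6.95 and 7.43. Again the lymphoma mice did not overlap the others, with a fitted difference of -1.83 ± 0.22 (limma, adjusted p = 9.73e-07).

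Cxcr6, the receptor of resident memory and NKT-type cells, and its membrane-bound ligand Cxcl16, made by dendritic cells and macrophages, fell as a pair. Cxcr6 in spleen was 7.69, 7.48 and 7.03 in controls, 6.49, 6.84 and 7.40 in asymptomatic mice and 4.50, 5.10 and 5.77 in lymphoma mice. In node it was 8.61, 6.34 and 7.80, then 6.24, 7.03 and 8.22, then 4.90, 5.26 and 5.41. The lymphoma arrays were the lowest in each organ without overlap. The fitted difference was -1.22 ± 0.22 in spleen (limma, adjusted p = 0.000286) and -2.67 ± 0.24 in node (limma, adjusted p = 2.47e-08), beside differences of means of -1.75 and -1.90. Cxcl16 in spleen was 6.59, 7.77 and 7.75 in controls, 6.83, 7.17 and 7.45 in asymptomatic mice and 5.39, 5.94 and 6.24 in lymphoma mice, a fitted difference of -1.32 ± 0.32 (limma, adjusted p = 0.0052). In node it was 8.80, 8.26 and 9.27, then 7.74, 8.53 and 8.86, then 5.42, 5.87 and 6.68, a fitted difference of -2.32 ± 0.35 (limma, adjusted p = 3.04e-05). The ligand thus stood apart in all lymphoma mice as the receptor did. Without the arrays that carry neighbouring tissue, which leaves 1 asymptomatic node, the node difference of Cxcl16 was -1.40 (limma, adjusted p = 0.0787).

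Xcl1, the lymphotactin made by activated CD8 T and NK cells, separated the states in the same way. In spleen it was 7.66, 8.73 and 8.82 in controls, 7.66, 7.79 and 8.03 in asymptomatic mice and 6.40, 6.54 and 6.84 in lymphoma mice. In node it was 7.87, 7.49 and 7.84, then 7.27, 7.56 and 7.62, then 6.39, 6.65 and 6.74. No lymphoma array reached any other array of its organ. Against asymptomatic mice Xcl1 fell by 1.22 ± 0.16 in spleen (limma, adjusted p = 8.12e-06) and by 1.14 ± 0.18 in node (limma, adjusted p = 4.62e-05). Its receptor Xcr1, carried by cross-presenting dendritic cells and not a member by its symbol, and also among the dendritic cell markers used here, differed by -1.08 in spleen (limma, adjusted p = 0.0295) and -1.28 in node (limma, adjusted p = 0.0137). Cx3cl1, the membrane-anchored fractalkine of endothelium, passed in node, at 6.62, 7.15 and 7.38 in asymptomatic and 6.04, 6.50 and 6.75 in lymphoma mice (-0.71 ± 0.14; limma, adjusted p = 0.000401), and was at -0.31 without the neighbouring-tissue arrays (limma, adjusted p = 0.392). The difference between organs in its change did not pass (limma, adjusted p = 0.405). Cx3cr1 and Cxcl11 did not pass in any comparison.

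**Figure D2:**
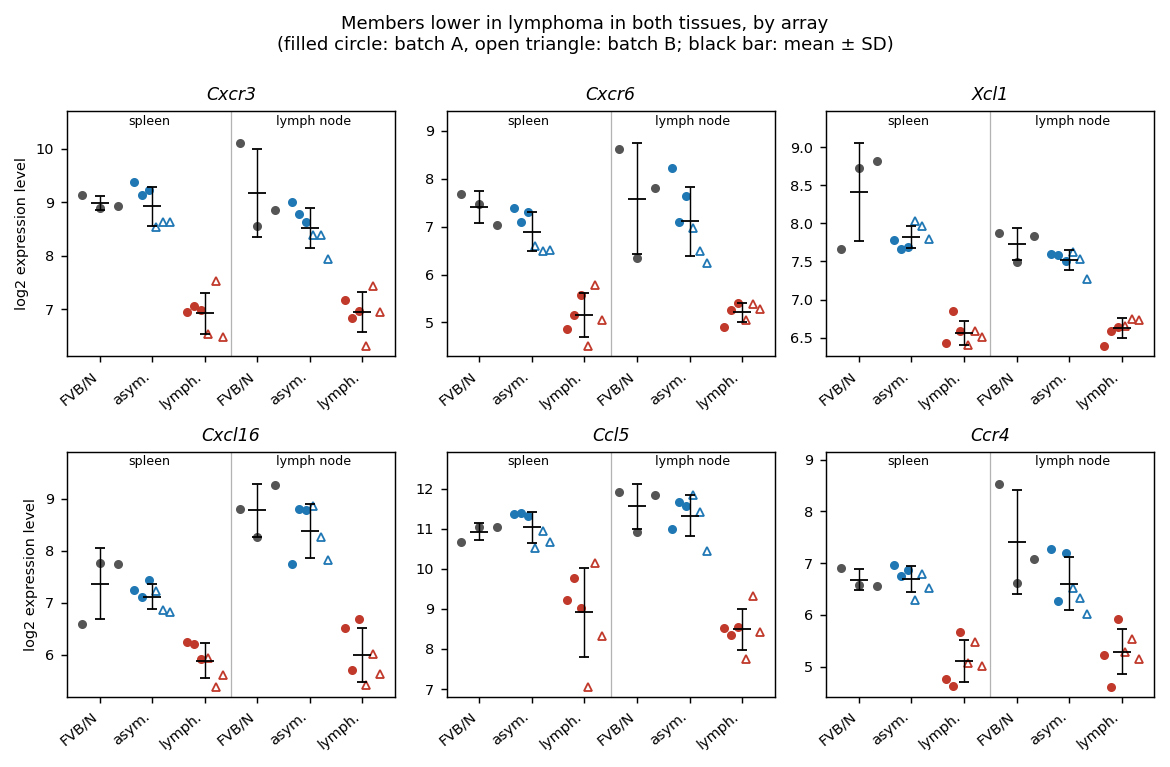
Log2 level (y axis) of Cxcr3, Cxcr6, Xcl1, Cxcl16, Ccl5 and Ccr4 on each array by state and organ (x axis), with the mean ± SD of each group (n = 3 FVB/N, 6 asymptomatic, 6 lymphoma mice). For all 6 genes the lymphoma points lie below every asymptomatic and control point of the same organ, with lymphoma spleens between 6.48 and 7.53 for Cxcr3 and 4.50 and 5.77 for Cxcr6.

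Ccl5 and Ccr4 showed the same separation outside this group. Ccl5 encodes RANTES, a product of memory T, NK and CD8 cells that binds CCR1 and CCR3. In spleen it was 10.68, 11.04 and 11.04 in controls, 10.51, 11.13 and 11.38 in asymptomatic mice and 7.06, 9.11 and 10.15 in lymphoma mice (-1.39 ± 0.28; limma, adjusted p = 0.00104), with a difference of means of -2.11. The lymphoma spleens spread widely, from mouse 4 at 7.06 to mouse 5 at 10.15, but did not overlap the asymptomatic ones. In node the controls read 11.92, 10.92 and 11.83, the asymptomatic mice 10.45, 11.49 and 11.84 and the lymphoma mice 7.74, 8.48 and 9.33, again without overlap (-2.60 ± 0.31; limma, adjusted p = 1.25e-06). Within batch B alone, with 3 mice a group, the spleen difference of Ccl5 did not pass (limma, adjusted p = 0.0625). Ccr4, the receptor of T helper 2 and regulatory T cells, was 6.29, 6.77 and 6.96 in asymptomatic and 4.63, 5.05 and 5.67 in lymphoma spleens (-1.16 ± 0.24; limma, adjusted p = 0.00115). In node it was 6.02, 6.43 and 7.28 in asymptomatic and 4.61, 5.26 and 5.92 in lymphoma mice (-1.73 ± 0.26; limma, adjusted p = 2.75e-05). Controls read 6.91, 6.57 and 6.56 in spleen and 8.53, 6.62 and 7.08 in node, all above the lymphoma mice.

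Lists of T cell and NK cell markers moved with these genes. Of 12 T cell markers, 11 were lower in lymphoma in each organ, and the mean of the list ran from 9.61 to 9.88 in asymptomatic and from 6.28 to 7.54 in lymphoma spleens, and from 8.71 to 10.56 and 6.38 to 7.88 in nodes. Of 11 NK and cytotoxic markers, 8 were lower and 1 higher in spleen and 7 lower in node, and the list mean ran from 7.67 to 7.87 in asymptomatic and from 5.54 to 6.88 in lymphoma spleens, and from 6.90 to 7.34 and 5.89 to 6.60 in nodes. Of 8 dendritic cell markers, 5 were lower in spleen and 6 in node, with list means of 7.76 to 8.27 in asymptomatic and 6.30 to 7.12 in lymphoma spleens and 7.64 to 8.63 and 6.13 to 7.32 in nodes. Of 8 B cell precursor markers, 7 were higher in each organ, with list means of 6.59 to 6.80 in asymptomatic and 9.20 to 9.95 in lymphoma spleens and 6.46 to 7.42 and 9.68 to 10.14 in nodes. The part of these cell types in the falls of Cxcr3, Cxcr6, Xcl1, Ccl5, Ccr4 and Cxcl16 was not tested.

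Against FVB/N controls the same 6 genes were lower in lymphoma in both organs, a comparison that shares its lymphoma arrays with the one above. In spleen 8 of 41 members passed (19.5%, against 12.3% of all genes), 1 higher (7.1% of all genes were) and 7 lower (5.25%). In node 12 passed (29.3%, against 16.6%), 3 higher (8.59%) and 9 lower (7.98%). Xcl1 differed by -1.91 ± 0.20 in spleen (limma, adjusted p = 9.14e-07) and Cxcr6 by -2.51 ± 0.29 in node (limma, adjusted p = 1.44e-06). In spleen 3 of the 6 calls ended when 1 mouse was left out. Ccl5 did not pass without FVB/N mouse 3 or lymphoma mouse 1 or 2 (limma, adjusted p up to 0.211; values -1.71 to -0.88 over all mice left out in turn), and Ccr4 did not without FVB/N mouse 3 or lymphoma mouse 1 or 6 (limma, adjusted p up to 0.138; values -1.58 to -0.81). Cxcl16 did not pass without FVB/N mouse 3 (limma, adjusted p = 0.0562), nor without the neighbouring-tissue arrays, at -1.18 (limma, adjusted p = 0.0534). The other 3 members lower in node were Ccr9, Ccr10 and Cx3cl1. Ccr9 and Ccr10 did not pass without FVB/N mouse 1, and Ccr9 also did not without surrogate variables or when lymphoma mouse 1 or asymptomatic mouse 1 or 4 was left out. Cx3cl1 did not pass without the neighbouring-tissue arrays. Ccr1 was higher, by +2.98 in spleen and +3.73 in node beside differences of means of +0.93 and +1.73, and passed in neither organ without surrogate variables, without lymphoma mouse 5 or without the neighbouring-tissue arrays. Members that passed here but not against asymptomatic mice were Ccl3 in spleen, lower, and Ccl6 and Cxcl2 in node, higher.

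The starts of Cxcr3, Cxcr6 and Xcl1 are shown because 4 genes passed as lower in lymphoma than in asymptomatic mice in both organs under each setting that could be fitted, and these 3 of them hold the motif in capitals; the fourth, Ccr4, does not hold it. The windows are the 250 bases before the annotated start, from RefSeq on GRCm38.p6, 5′ to 3′ on the gene's own strand, with a match to the RUNX core TGTGGT on either strand in capitals (ACCACA is its reverse complement).
Cxcr3, chrX:101734148-101734397, - strand: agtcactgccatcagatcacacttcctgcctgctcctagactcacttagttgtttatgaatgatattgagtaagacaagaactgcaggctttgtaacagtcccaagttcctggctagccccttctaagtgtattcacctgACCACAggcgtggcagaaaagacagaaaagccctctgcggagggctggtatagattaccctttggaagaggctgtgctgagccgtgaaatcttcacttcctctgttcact
Cxcr6, chr9:123806227-123806476, + strand: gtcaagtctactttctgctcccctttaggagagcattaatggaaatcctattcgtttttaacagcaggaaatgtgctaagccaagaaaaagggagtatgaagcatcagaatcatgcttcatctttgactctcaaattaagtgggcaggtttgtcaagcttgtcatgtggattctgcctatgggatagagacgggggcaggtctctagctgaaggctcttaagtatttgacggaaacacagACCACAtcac
Xcl1, chr1:164935523-164935772, - strand: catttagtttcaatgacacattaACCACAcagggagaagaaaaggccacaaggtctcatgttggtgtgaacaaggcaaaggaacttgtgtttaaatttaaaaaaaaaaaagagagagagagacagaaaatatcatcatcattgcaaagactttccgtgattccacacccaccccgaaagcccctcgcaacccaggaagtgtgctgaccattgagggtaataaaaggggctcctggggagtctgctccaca
RUNX factors direct many T and NK cell genes, and this motif and the T-box core AGGTGT were picked after the expression values had been seen. TGTGGT lies in 9 of 31 promoters of the 29 member genes matched in the table (29.0%), against 14.0% of 32851 promoters of this length, and AGGTGT in 4 of 31 (12.9%), against 11.8%. TGTGGT also lies in promoters of members that did not fall in lymphoma, such as Ccr1, Cx3cr1, Ccr1l1 and Cxcr1, and the Ccr4 window holds neither. An interferon-type motif, GAAA, any 2 bases and GAAA again on either strand, was in 1 of 31 (3.23%), that of Cxcl14, against 2.98%. A match is a string of letters and no evidence of binding.

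Ccr6 fell in both organs as well. Ccr6, which guides mature B cells and some T helper cells toward Ccl20, was 8.47, 8.80 and 9.05 in asymptomatic spleens and 5.92, 6.15 and 8.34 in lymphoma spleens. The fitted difference was -0.82 ± 0.14 (limma, adjusted p = 0.000198), far smaller than the difference of means of -2.24. In node it was 8.03, 8.22 and 8.60 against 5.83, 6.48 and 8.30 (-0.95 ± 0.16; limma, adjusted p = 7.46e-05; difference of means -1.49). Lymphoma mouse 5 stood at 8.34 in spleen and 8.30 in node, inside or next to the asymptomatic range, while the other 5 mice were between 5.83 and 7.53. Within batch B, which holds mouse 5, Ccr6 passed in neither organ (limma, adjusted p = 0.0801 in spleen and 0.208 in node), and without mouse 5 the difference was -2.54 in spleen and -2.12 in node. Mature B cell markers moved with it: 4 of 7 were lower in each organ and 2 higher in node, and the list mean was highest in mouse 5 among lymphoma mice, at 10.54 in spleen and 10.09 in node. The T cell list mean was also highest in mouse 5 among them, at 7.54 and 7.88. The part of these lists was not tested. The ligand Ccl20 did not pass in any comparison.

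Mucosal receptors fell in node. Ccr9, the gut-homing receptor for Ccl25, was 5.68, 6.55 and 7.36 in asymptomatic and 4.62, 5.45 and 6.77 in lymphoma nodes, which overlap (-1.12 ± 0.32; limma, adjusted p = 0.0111). In spleen it was 6.09, 7.13 and 7.92 against 5.02, 5.73 and 6.67, a fitted difference of -0.75 that did not pass (limma, adjusted p = 0.0798). It did without surrogate variables, at -1.25 (limma, adjusted p = 0.00932), and with the replicate number as a block, at -1.20 (limma, adjusted p = 0.0426). Ccr10, the receptor for Ccl28 on skin- and mucosa-seeking cells, was 5.74, 6.44 and 6.82 in asymptomatic and 5.65, 6.09 and 6.50 in lymphoma nodes. Its groups overlap widely, and the fitted -0.87 ± 0.18 (limma, adjusted p = 0.000986) became -0.29 without surrogate variables and -0.60 without the neighbouring-tissue arrays, neither of which passed, nor did it pass within batch A or batch B alone. Ccr9 in node did not pass without those arrays either, at -1.69 (limma, adjusted p = 0.0588), nor within batch A or batch B alone, nor without asymptomatic mouse 1 or 4. Ccl1, Ccl25, Ccl28 and Ccr8 did not pass in either organ for lymphoma against asymptomatic mice; with mouse as a block Ccr8 passed in node, at -0.99 (limma, adjusted p = 0.0451).

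Ccr1 was the only member that passed as higher in lymphoma than in asymptomatic mice, and its level differed widely between lymphoma mice. Ccr1 is a receptor of monocytes, neutrophils and other myeloid cells for Ccl3, Ccl5, Ccl6 and Ccl9. In spleen lymphoma mice 1 to 6 read 6.00, 5.56, 7.02, 6.40, 9.03 and 4.80, while asymptomatic mice lay between 5.75 and 6.48. Mouse 5 was far above that range, mouse 3 above it, and mice 2 and 6 below it, and the means were 6.27 in asymptomatic and 6.47 in lymphoma mice. In node lymphoma mice 1 to 6 read 4.96, 4.63, 7.24, 7.49, 9.25 and 4.86, and asymptomatic mice 4.35 to 4.99. Mice 3, 4 and 5 were above every asymptomatic node and mice 1, 2 and 6 were within their range. The fitted difference was +2.29 ± 0.32 in spleen (limma, adjusted p = 1.72e-05) and +3.05 ± 0.36 in node (limma, adjusted p = 8.63e-07). Without surrogate variables it was +0.20 in spleen (limma, adjusted p = 0.921) and +1.78 in node (limma, adjusted p = 0.0251). Without mouse 5 the spleen difference turned to -0.60 (limma, adjusted p = 0.118), without mouse 3 it was +0.43 (limma, adjusted p = 0.488) and without mouse 4 +1.14 (limma, adjusted p = 0.0577). In node it was +0.96 without mouse 5 (limma, adjusted p = 0.0395) and +1.16 without mouse 3 (limma, adjusted p = 0.0443). Without the neighbouring-tissue arrays it was -0.64 in spleen (limma, adjusted p = 0.385) and +0.42 in node (limma, adjusted p = 0.75). It passed in neither organ within batch A or batch B alone.

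Ccr2, the receptor that calls inflammatory monocytes out of the marrow, followed the same mice without passing the test. In spleen lymphoma mice 1 to 6 read 6.22, 6.71, 8.25, 6.65, 9.70 and 5.56 against 8.28 to 8.70 in asymptomatic mice. In node they read 6.00, 5.74, 9.50, 7.38, 9.73 and 6.61 against 7.06 to 8.61. Mouse 5 lay above the asymptomatic mice in both organs and mouse 3 in node, whereas mice 1, 2 and 6 lay below in both organs. The difference of means was -1.29 in spleen, but the fitted one was +0.52 (limma, adjusted p = 0.505); without mouse 5 it was -1.83 (limma, adjusted p = 0.00063), and without the neighbouring-tissue arrays -2.72 (limma, adjusted p = 0.00153). The mean of 12 monocyte and macrophage markers was highest in other mice: in spleen it was 8.47 in mouse 3 and 7.79 in mouse 5, against 7.15 to 9.11 over all lymphoma mice. Other lists had mouse 5 highest among the lymphoma mice, in spleen those of T cells (7.54), NK and cytotoxic cells (6.88), mature B cells (10.54), dendritic cells (7.12), mast cells and basophils (6.21) and megakaryocytes (8.03), and in node those of T cells (7.88), NK and cytotoxic cells (6.60), mature B cells (10.09), mast cells and basophils (5.97) and salivary gland (7.14). The dendritic cell list in node was highest in mouse 3, at 7.32. The part of these lists in the levels of Ccr1 and Ccr2 was not tested. Ccr1 and Ccr2 lie in a run of 6 member genes with Ccr9, Cxcr6, Ccr1l1 and Ccr3, in which each gene lies at most 2 places from the next on chromosome 9 in the RefSeq gene order. In the fit, Cxcr6 and Ccr9 were lower in lymphoma node and Ccr1 was higher. Whether the genes of this run change together was not tested.

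**Figure D3:**
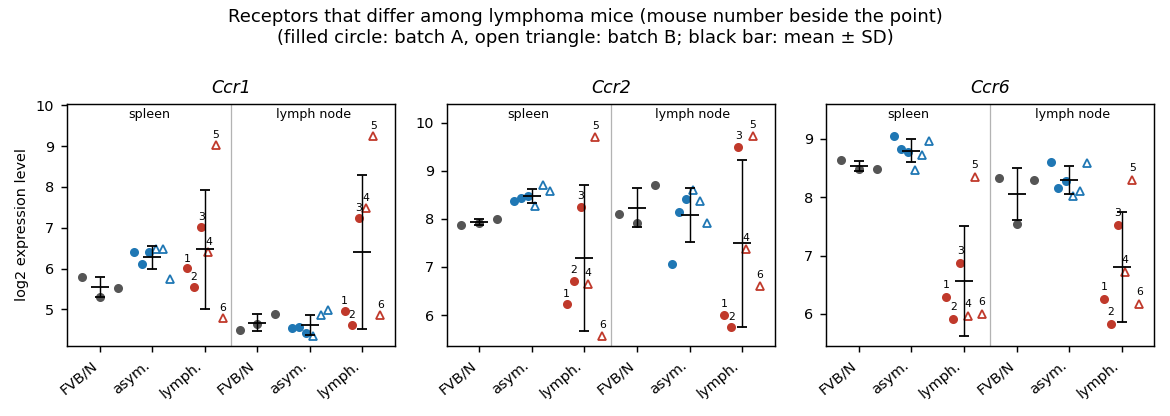
Log2 level (y axis) of Ccr1, Ccr2 and Ccr6 on each array by state and organ (x axis), with the lymphoma mouse number beside each lymphoma point and the mean ± SD of each group. Mouse 5 is the highest lymphoma point in all 6 sets of values, at 9.03 and 9.25 for Ccr1, while mice 1, 2 and 6 stay low for Ccr2 and Ccr6.

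Ccl3 stood at its highest in control spleens and was lower in Tg26 spleens of batch B than of batch A. It encodes MIP-1α, which myeloid cells and activated lymphocytes release and CCR1 reads. In spleen it was 10.46, 11.91 and 11.84 in the controls. Asymptomatic spleens of batch A read 10.26 to 10.48 and those of batch B 8.22 to 8.28, and lymphoma spleens 8.19 to 8.78 in batch A and 6.51 to 7.71 in batch B. Batch A was above batch B in both states without overlap, and within each batch lymphoma was below asymptomatic. Against asymptomatic mice, the fitted difference was -0.59 (limma, adjusted p = 0.282), but the difference of means was -1.60. In a fit that holds the labelled batch and no surrogate variables, -1.60 passed (limma, adjusted p = 0.00042), as did -1.89 within batch A (limma, adjusted p = 0.0139) and -1.31 within batch B (limma, adjusted p = 0.0308). Against FVB/N, Ccl3 fell in lymphoma spleen by 1.75 ± 0.42 (limma, adjusted p = 0.00603), with a difference of means of -3.68, and within batch A it fell by 2.90 (limma, adjusted p = 0.000558). Without FVB/N mouse 3 the former did not pass (limma, adjusted p = 0.0658).

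Ccl4, the MIP-1β neighbour of Ccl3, had a similar order in spleen. Controls read 7.04, 8.55 and 8.42, asymptomatic mice 6.70, 7.26 and 7.68, and lymphoma mice 5.87, 6.31 and 6.96. It passed in no comparison of the fit with surrogate variables; with batch as a term, lymphoma against asymptomatic spleen was -0.88 (limma, adjusted p = 0.0101). In node Ccl3 was 8.13, 7.20 and 7.83 in controls, 6.40, 7.17 and 8.21 in asymptomatic and 6.42, 7.30 and 9.39 in lymphoma mice, which overlap throughout. Ccl6 and Ccl9, ligands of Ccr1 from myeloid cells, did not pass between lymphoma and asymptomatic mice; Ccl6 was higher in lymphoma than in FVB/N node by +1.43 ± 0.39 (limma, adjusted p = 0.0118), though the levels, 6.46, 7.31 and 6.76 against 6.58, 7.23 and 7.54, overlap and the difference of means was +0.28. It did not pass without surrogate variables (limma, adjusted p = 0.619), with batch as a term, within batch A, with the replicate number as a block (limma, adjusted p = 0.0691), without lymphoma mouse 4, or without the neighbouring-tissue arrays, at +0.88 (limma, adjusted p = 0.0594).

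None of the 7 neutrophil-attracting members passed between lymphoma and asymptomatic mice in either organ (limma). Of all genes, 15.8% passed in spleen and 24.1% in node, so the lack of a call in 7 genes does not set them apart. At an unadjusted p under 0.05 there was 1 difference among the 7, Cxcl1 in node at -0.42 (limma, unadjusted p = 0.0158). Cxcl2, the MIP-2 ligand of CXCR2, was 6.38, 7.32 and 7.66 in lymphoma spleens of batch A and 5.11, 5.48 and 4.90 in those of batch B. In node it was 7.47, 6.51 and 7.72 in batch A and 5.39, 4.98 and 5.23 in batch B. Batch A lay above batch B in all 4 Tg26 groups for Cxcl2 and for Cxcl1, and in 3 of 4 for Ccl2, Ccl20, Ccl3, Ccr10 and Cxcl3. Ccr9 went the other way in asymptomatic spleen and node and in lymphoma spleen. Of the 41 members, batch A lay above in 15 and below in 5 in asymptomatic spleen, and in 15 and 3 in asymptomatic node. In lymphoma these counts were 7 and 4 in spleen and 7 and 2 in node. The same share over all genes was not counted, so these counts do not set the members apart. Batch and the mice it holds cannot be told apart here. Cxcl1 itself was 7.21 to 7.55 in asymptomatic spleens of batch A and 6.52 to 7.01 in those of batch B. Cxcl2 was higher in lymphoma than in FVB/N node by +1.76 ± 0.50 (limma, adjusted p = 0.0164), and by +1.82 within batch A (limma, adjusted p = 0.00148), where controls read 5.45, 5.14 and 5.64. Over both batches it was +0.81 without surrogate variables (limma, adjusted p = 0.347) and +0.81 without the neighbouring-tissue arrays (limma, adjusted p = 0.391), and it did not pass without lymphoma mouse 2 or 4.

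Cxcr2, the receptor of neutrophils for these ligands, varied widely and passed nowhere. In spleen it was 7.98, 6.11 and 6.24 in controls, 7.39, 8.29 and 8.70 in asymptomatic mice and 4.71, 7.76 and 7.92 in lymphoma mice. Lymphoma mouse 4 was the lowest, and its spleen was also the lowest in the neutrophil marker list, at 6.84 against 7.73 to 9.77 in the other lymphoma spleens. Neutrophil markers were higher in lymphoma node for 8 of 11 genes and in spleen for 1 of 11, while Cxcr2 in node was 5.84, 7.44 and 7.86 in asymptomatic and 4.78, 5.61 and 7.23 in lymphoma mice. In node Cxcr2 thus had a lower median in lymphoma while the granule marker list was higher. Asymptomatic nodes 2 to 6, which carried neighbouring-tissue transcripts, read 7.26 to 7.86. Node 1, which did not carry them, read 5.84, inside the lymphoma range. FVB/N nodes 2 and 3, which also carried them, read 7.61 and 8.35, and FVB/N node 1 read 5.76. The part of neighbouring tissue in the node levels of Cxcr2 was not tested.

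**Figure D4:**
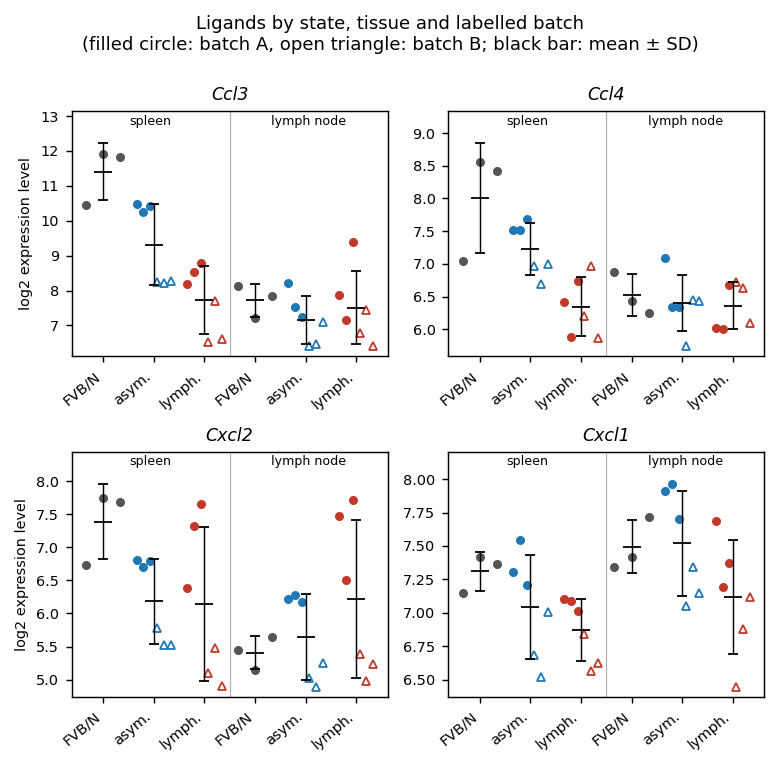
Log2 level (y axis) of Ccl3, Ccl4, Cxcl2 and Cxcl1 on each array by state and organ (x axis), batch A as filled circles and batch B as open triangles, with the mean ± SD of each group. For Cxcl1 and Cxcl2 the circles lie above the triangles in all 4 Tg26 groups, and Ccl3 in spleen steps down from controls (10.46 to 11.91) to lymphoma mice of batch B (6.51 to 7.71).

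Stretches before the starts of Cxcl1, Cxcl2 and Cxcl3 are shown because these neighbouring ligands share a batch-linked pattern and the same promoter motif. Capitals mark matches to an NF-κB-like pattern, GGG, any 3 bases and TTCC, on either strand; some matches overlap, because GGGAATTTCCC matches on both strands. The sequences are from RefSeq on GRCm38.p6, 5′ to 3′ on the gene's strand.
Cxcl1, chr5:90891136-90891204, + strand: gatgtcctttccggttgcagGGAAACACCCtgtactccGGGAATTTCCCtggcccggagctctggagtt
Cxcl2, chr5:90903782-90903850, + strand: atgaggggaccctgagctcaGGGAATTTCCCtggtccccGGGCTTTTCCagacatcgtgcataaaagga
Cxcl3, chr5:90786008-90786080, + strand: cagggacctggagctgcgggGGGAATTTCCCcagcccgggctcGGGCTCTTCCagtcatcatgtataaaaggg
Each of these windows holds 3 matches, and the run GGGAATTTCCC is in all of them. NF-κB is the textbook inducer of these ligands after inflammatory signals. The motif was in 8 of 31 member promoters (25.8%), against 4.65% of 32851 promoters. The others were those of Ccl1, Ccl20, Ccl9, Ccr3 and Ccr6. Batch A lay above batch B in 3 Tg26 groups for Ccl20, in 1 for Ccl1 and for Ccr3, and in 0 for Ccl9 and Ccr6. Ccl3, with 3 such groups, holds no match, nor does Cxcl15, with 1, which lies between Cxcl3 and Cxcl1. A link between the motif and the batch pattern was not tested. None of Cxcl1, Cxcl2 and Cxcl3 passed between lymphoma and asymptomatic mice.

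Of the monocyte-attracting members, Ccl8 alone passed, as lower in lymphoma node. Ccl8, also called MCP-2, was 5.71, 7.47 and 7.37 in control nodes, 5.88, 8.01 and 10.32 in asymptomatic nodes and 4.78, 5.57 and 6.22 in lymphoma nodes. In spleen every array read between 4.25 and 4.86. The node difference was -1.90 ± 0.46 (limma, adjusted p = 0.00355). The high nodes were FVB/N nodes 2 and 3 and asymptomatic nodes 2 to 5, at 7.37 to 10.32, and these same arrays carried salivary gland, pancreas, or adipose and muscle transcripts. Asymptomatic node 1, which did not carry them, read 5.88, inside the lymphoma range; asymptomatic node 6, which carried pancreas transcripts, read 6.24. Without the 10 arrays the difference was -0.09 (limma, adjusted p = 0.904). Endothelium markers, 7 of 9 lower in lymphoma node, and adipose and muscle markers, 8 of 13 lower, moved with Ccl8 (list means 7.54 to 9.03 in asymptomatic and 6.51 to 6.93 in lymphoma nodes for endothelium, and 6.42 to 10.13 and 6.00 to 6.27 for adipose and muscle). Stroma markers, 4 of 9 lower, ran from 7.61 to 8.78 and from 5.96 to 7.42, and monocyte and macrophage markers, 2 of 12 lower, from 7.49 to 9.80 and from 6.93 to 8.15. Node 1, where Ccl8 was lowest, was also lowest for the endothelium, stroma and monocyte lists among asymptomatic and among FVB/N nodes. The part of these lists was not tested. Ccl2, Ccl7 and Ccl12 did not pass.

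Ccl11, the eosinophil attractant eotaxin, also had FVB/N nodes 2 and 3 above node 1: it was 6.74, 9.55 and 9.30 in controls, 7.53, 8.66 and 9.42 in asymptomatic and 6.61, 6.94 and 7.44 in lymphoma nodes. The asymptomatic and lymphoma nodes did not overlap, yet the fitted -0.97 ± 0.36 missed the threshold (limma, adjusted p = 0.0541), while -1.58 passed without surrogate variables (limma, adjusted p = 0.00116). Without the neighbouring-tissue arrays it was -0.24.

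Few members differed between asymptomatic Tg26 and FVB/N mice. In spleen 2 of 41 members passed (4.88%, against 0.617% of all genes), Ccr3 higher (0.306% of all genes were) and Xcl1 lower (0.311%). In node 3 passed (7.32%, against 1.94%), Ccl8 and Ccr6 higher (1.34%) and Ccl28 lower (0.592%). The clearest was Ccr3, the eosinophil receptor for eotaxins. Its spleen levels were 5.85, 6.11 and 6.05 in FVB/N and 7.59, 7.87 and 8.27 in asymptomatic mice, with no overlap (+1.95 ± 0.43; limma, adjusted p = 0.0359). Lymphoma spleens of batch A read 7.57, 8.60 and 7.73, level with the asymptomatic ones, and those of batch B 5.11, 6.30 and 6.28, near the controls. Within batch A the difference between asymptomatic and FVB/N spleens was +1.89 (limma, adjusted p = 0.00176), while with batch as a term the same comparison was +2.00 and did not pass (limma, adjusted p = 0.265). It passed in none of the fits without FVB/N mouse 1, 2 or 3, without asymptomatic mouse 1, 2, 3 or 4, or without lymphoma mouse 5.

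The 5 eosinophil markers did not pass in that spleen comparison, the nearest being Il5ra at +1.05 (limma, adjusted p = 0.205), with list means of 5.96 to 6.06 in FVB/N and 6.17 to 6.72 in asymptomatic mice. Of 12 monocyte and macrophage markers 5 were higher, with list means of 7.60 to 7.66 and 8.54 to 9.01, and their part in the level of Ccr3 was not tested. In node Ccr3 was low, at 5.04 to 6.07, except for asymptomatic mouse 6 at 8.60; that array also had the highest red pulp list mean of all arrays, 9.38, and the highest pancreas list mean, 13.40. Xcl1 in spleen was at the edge of the threshold (-0.68 ± 0.16; limma, adjusted p = 0.0499), with control mouse 1 at 7.66 inside the asymptomatic range, and it passed in 1 of 27 other settings, without FVB/N mouse 1. Among the 26 in which it did not pass were the fit with mouse as a block (limma, adjusted p = 0.0542), that without surrogate variables (limma, adjusted p = 0.256) and that without the neighbouring-tissue arrays (limma, adjusted p = 0.212), and the highest adjusted p over all of them was 0.807.

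The node differences did not pass once arrays with neighbouring tissue were left out. That fit holds only node 1 of FVB/N and of asymptomatic mice, so it cannot decide whether the nodes of these states differ. Ccl28, a mucosal chemokine abundant in salivary gland, was 5.71, 9.27 and 6.28 in FVB/N nodes and 5.14, 5.51 and 6.05 in asymptomatic ones (-1.41 ± 0.32; limma, adjusted p = 0.0248). The value of 9.27 was from node 2, whose salivary list mean was 10.68. Ccl8 (+1.87, limma, adjusted p = 0.0287, difference of means +1.20) and Ccr6 (+0.78, limma, adjusted p = 0.0084, difference of means +0.24) were the others. None of these 3 passed without surrogate variables. With 1 mouse left out, the call of Ccl28 ended for lymphoma mice 1 to 3, asymptomatic mice 2 and 3 and FVB/N mouse 2. That of Ccl8 ended for lymphoma mouse 3, asymptomatic mice 2, 3 and 6 and each FVB/N mouse, and that of Ccr6 for lymphoma mice 3 to 5, asymptomatic mice 2 to 6 and FVB/N mice 1 and 2.

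**Figure D5:**
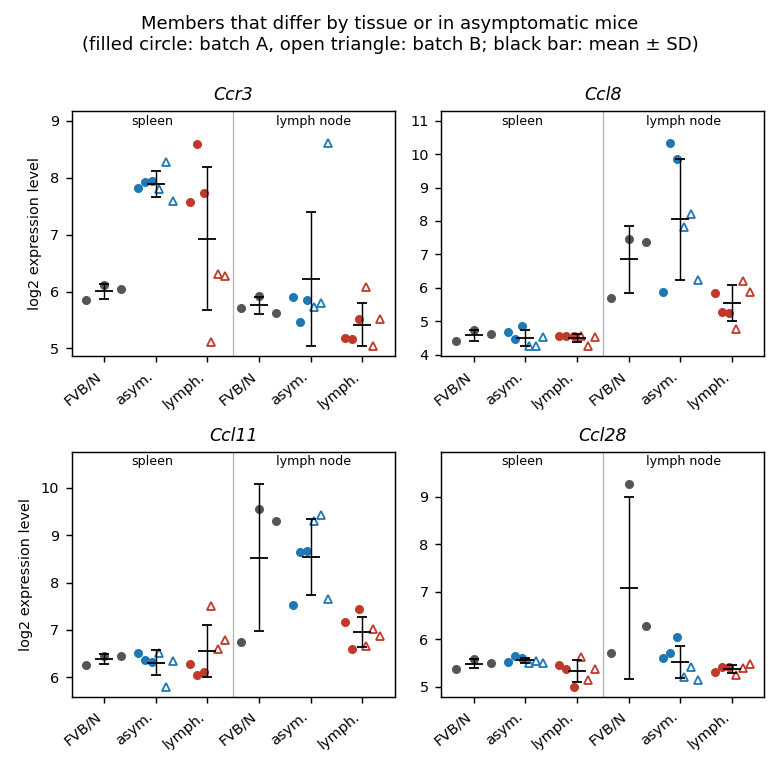
Log2 level (y axis) of Ccr3, Ccl8, Ccl11 and Ccl28 on each array by state and organ (x axis), with the mean ± SD of each group. Ccr3 separates FVB/N (5.85 to 6.11) from asymptomatic spleens (7.59 to 8.27), Ccl28 is high in FVB/N node 2 (9.27), and Ccl8 reaches 10.32 in an asymptomatic node.

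In FVB/N mice 8 of 41 members differed between node and spleen (19.5%, against 4.27% of all genes), 4 higher in node (2.14% of all genes were) and 4 lower (2.13%). In asymptomatic mice 7 did (17.1%, against 5.62%), 4 higher (3.36%) and 3 lower (2.26%), and in lymphoma mice 0 (against 0.0552%); whether these counts differ was not tested, and in lymphoma 4 members reached an unadjusted p under 0.05 in limma, Ccl8, Ccr3, Ccr6 and Cxcr2. Ccl3 differed in node by -3.19 ± 0.45 in FVB/N mice (limma, adjusted p = 0.000436) and by -1.54 ± 0.39 in asymptomatic mice (limma, adjusted p = 0.0188), and it read lower in node in 3 of 3 and 6 of 6 animals. The asymptomatic difference was -0.90 with the replicate number as a block (limma, adjusted p = 0.268), and did not pass without the neighbouring-tissue arrays (limma, adjusted p = 0.144) or without FVB/N mouse 2 or asymptomatic mouse 3 or 4. In lymphoma mice it was higher in node in 2 of 6 animals. Ccl6 was lower in node in both states (-1.84 ± 0.38; limma, adjusted p = 0.0066; and -1.77 ± 0.33; limma, adjusted p = 0.00249), with a difference of means of -1.12 in FVB/N mice; it did not pass in asymptomatic mice within batch A or batch B alone. Ccl9 and Cxcl2 were also lower in FVB/N node, and Ccr3 in asymptomatic node. Ccl8 read higher in node in all 15 animals and passed in asymptomatic mice (+2.35 ± 0.47; limma, adjusted p = 0.00426; difference of means +3.54). Of 11 neutrophil markers, 8 were lower in node in FVB/N and 10 in asymptomatic mice (list means 5.53 to 5.58 and 5.59 to 7.24 in node, 7.86 to 9.07 and 8.24 to 8.93 in spleen), and their part in the lower Ccl3 and Ccl6 was not tested.

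Ccr4, Ccr10, Cxcr6 and Ccl1 were higher in FVB/N node and Ccr10, Cxcr6 and Ccr8 in asymptomatic node. By fitted difference, 6 and 8 of 12 T cell markers were higher in node in these states. The measured T cell list ran from 9.09 to 10.79 in FVB/N nodes (mean 9.91) and from 9.67 to 9.73 in spleens (mean 9.70). In asymptomatic mice it ran from 8.71 to 10.56 in node (mean 9.59) and from 9.61 to 9.88 in spleen (mean 9.74). As measured, the list mean was thus not higher in asymptomatic node. Of the 8 calls in FVB/N mice, that of Ccl3 held in each other setting. The other 7 were lost without surrogate variables and without FVB/N mouse 1, those of Ccl6, Ccl9, Cxcl2 and Cxcr6 with the replicate number as a block, and those of Ccl9 and Cxcr6 without the neighbouring-tissue arrays. Of the 7 calls in asymptomatic mice, those of Ccr10, Cxcr6 and Ccr8 were lost without surrogate variables, those of Ccl3, Ccl8, Ccr3, Ccr8 and Ccr10 with the replicate number as a block, and all but that of Ccl6 without the neighbouring-tissue arrays. Those of Ccl8, Ccr3, Ccr8 and Ccr10 were also lost without FVB/N mouse 1. Cxcr6 was also the only member whose lymphoma change differed between organs (2.44%, against 0.572% of all genes). Its fitted change was more negative in node than in spleen by -1.44 ± 0.30 (limma, adjusted p = 0.0226), but the differences of means were -1.90 and -1.75. Without surrogate variables the value was -0.15 (limma, adjusted p = 0.894), and it passed in 11 of 28 other settings, not among them the fit without the neighbouring-tissue arrays.

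Of 37 measured decoy receptors and signalling genes, 8 were lower in lymphoma spleen (7.25% of all genes were) and 3 higher (8.58%), together 29.7% of the list and 15.8% of all genes. In node 11 were lower (12.5%) and 3 higher (11.6%), together 37.8% and 24.1%. The share that was higher was below that of all genes in both organs. Among those lower in both organs were Grk3, a kinase that desensitizes receptors (-0.95 in spleen and -1.23 in node), and Dock2, which drives lymphocyte migration (-0.39 and -0.40). Rgs16, which shortens G protein signals, was higher in both, by +2.62 in spleen (limma, adjusted p = 1.1e-05) and +1.59 in node (limma, adjusted p = 0.0041). The atypical receptor Ackr3 was lower in spleen (-0.54) and the scavenger Ackr4 in node (-0.38). Of 16 cytokines that induce chemokines, none was higher in either organ; Ltb, the lymphotoxin of mature lymphocytes, was lower in both (-1.46 and -1.82), Il18 in spleen (-1.11) and Il33 in node (-1.38), and Tnf and Il1b did not pass.

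Members that never passed include Cxcl17, a CXC ligand of mucosal tissues. It read 6.72 to 6.94 in FVB/N, 5.88 to 7.07 in asymptomatic and 6.17 to 7.52 in lymphoma spleens, which overlap throughout. In node it read 6.47, 8.42 and 6.71 in FVB/N mice, the high value again from the node with most salivary transcripts, 5.89 to 7.02 in asymptomatic and 6.32 to 7.12 in lymphoma mice. Ccl25, the gut ligand of Ccr9, lay between 6.78 and 7.77 on every array. Cx3cr1, the fractalkine receptor of monocytes and NK cells, was highest in lymphoma mouse 5 among the lymphoma mice, at 8.58 in spleen and 8.12 in node. The same held in both organs for Ccr1, Ccr2, Ccr6, Ccr9, Cxcr3 and Ccl5.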

How the data were processed

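RNA from the spleen and a lymph node of 15 mice was hybridised to 30 arrays (Affymetrix GeneChip, mouse gene design), 1 per organ and mouse. The authors deposited log2 values, which they had processed from probe intensities by fRMA, a frozen form of robust multiarray analysis, as the series' design text states; the genome build and software versions are not given in the sources used here. The number of arrays limits the precision, and signal over background was not analysed here.

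Of 35556 probe sets with values, 21789 had 1 gene symbol in the platform annotation, 1621 had several and 12146 were unnamed here. The probe set with the highest mean stood for each of 19938 genes; 1 member had several. Symbols of 7 probe sets with several genes fitted the member pattern and were not used, so Ccl21 and Ccl27 genes are not analysed here. All 30 arrays entered 1 limma 3.58.1 fit (R 4.3.3) with 6 groups and 6 surrogate variables (5 iterations; number from 20 permutations at p 0.1), as the design text names surrogate variables, empirical Bayes and Benjamini-Hochberg adjustment. The code was tested on simulated data. Named members are those that passed in a comparison, up to 12 by size of the fitted difference, the member with the highest mean level in each role group, and members completing a ligand-receptor pair or a count of 5 or fewer; Ccl4 was named, and the RUNX and T-box motifs searched, after values were seen.

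The members and lists were chosen with earlier results of these data known. Marker list levels are means of the listed genes. Mice with the same number in the 2 organs are the same animals, so mouse was tried as a random block. The organs of a lymphoma mouse deviated together (correlations across genes 0.29 to 0.68), those of an asymptomatic mouse likewise (0.14 to 0.50) and those of a control less (-0.014 to 0.052). Same-numbered asymptomatic and lymphoma mice, which share a batch but are different animals, correlated at 0.23 to 0.50 in spleen and 0.084 to 0.24 in node, so the number was also tried as a fixed term. Other settings were no surrogate variables, batch as a term, each batch alone, covariates, a filter on low levels, quantile normalization, other probe set and empirical Bayes choices, and each mouse left out. Leaving out the 10 neighbouring-tissue arrays was added after seeing the data.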

Additional observations from a re-analysis of the deposited data

Results flagged for a closer look

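In groups of 6 arrays, 80 member groups (20 members in the 4 Tg26 groups) were checked for 1 array far from the others by Dixon's test, and 4 stood apart; chance marks about 1 in 20 groups. Ccr3 in asymptomatic node 6 was 8.60, with the next highest node at 5.90. Xcl1 in the same array was 7.27, below the next lowest at 7.51. Ccl9 in asymptomatic node 1 was 6.38, below the next lowest at 7.66, and this is the asymptomatic node without neighbouring-tissue transcripts. Ccl8 in the spleen of lymphoma mouse 5 was 4.25, below the next at 4.52. By the test of the difference itself, the fitted change of Cxcr6 between asymptomatic and lymphoma mice differed between organs, by -1.44 in node minus spleen. As measured, the mean of node minus spleen was 0.21 in asymptomatic and 0.06 in lymphoma mice. The call was lost without surrogate variables.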

How the results depend on the processing

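Of 61 member and comparison pairs that passed, 20 passed in every one of up to 28 other settings that could be fitted, among them Cxcr3, Cxcr6, Xcl1 and Ccr4 for lymphoma against asymptomatic mice in both organs. Counts of members that passed moved by over 1.5 times as follows. The shares over all genes in these settings are not given here, so the counts do not set the members apart. For lymphoma against asymptomatic spleen, 8 became 14 with the filter on low levels and 16 without the neighbouring-tissue arrays. The filter keeps 29 of the 41 members and 12984 genes. In node the count also moved without those arrays, a fit that leaves 1 asymptomatic node. For asymptomatic against FVB/N spleen, 2 became 0 without surrogate variables, with batch as a term, with covariates, with the filter on low levels and with quantile normalization, and 1 within batch A, with the mean of probe sets, with trend and robust empirical Bayes, without the spleen of lymphoma mouse 4 and without the neighbouring-tissue arrays. In node 3 became 0 without surrogate variables, with batch as a term, within batch A, with covariates, with the filter and without the neighbouring-tissue arrays, and 1 with quantile normalization. For lymphoma against FVB/N spleen 8 became 13 without the neighbouring-tissue arrays. For the difference between organs in the lymphoma change, 1 became 2 without surrogate variables, 5 with batch as a term, and 0 within batch A, with covariates, with quantile normalization and without the spleen of lymphoma mouse 4. For node against spleen, 8 became 3 with covariates in FVB/N mice; 7 became 12 with batch as a term, 2 with covariates and 1 without the neighbouring-tissue arrays in asymptomatic mice; and 0 became 1 in lymphoma mice within batch A and without the spleen of mouse 4.

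Leaving out 1 mouse gave 8 to 15 for lymphoma against asymptomatic spleen, 15 being without lymphoma mouse 5 and 13 without lymphoma mouse 3, and 11 to 15 in node. It gave 0 to 4 for asymptomatic against FVB/N spleen and 0 to 3 in node, 4 to 13 for lymphoma against FVB/N spleen (4 without FVB/N mouse 3) and 11 to 16 in node, 0 to 4 for the organ difference, and 3 to 9, 3 to 12 and 0 to 3 for node against spleen in FVB/N, asymptomatic and lymphoma mice. Under the mouse block (correlation 0.12) the count was 1 for asymptomatic against FVB/N spleen; under the replicate number block it was 1 there, 1 in node, 0 for the organ difference, 4 for node against spleen in FVB/N and 2 in asymptomatic mice. Apart from these counts, the mouse block added Ccr8 in lymphoma node and removed Xcl1 in asymptomatic spleen. In lymphoma against asymptomatic spleen the number block added Ccr9 and Ccl8 (-1.44, limma, adjusted p = 0.0325) and removed none. The measured levels of Ccl8 do not show this fall. Its spleen mean was 4.51 in asymptomatic mice (4.26 to 4.86) and 4.50 in lymphoma mice (4.25 to 4.56).

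Ccr1 turned in spleen, against asymptomatic mice, to -0.11 within batch A, -0.60 without lymphoma mouse 5 and -0.64 without the neighbouring-tissue arrays, and against FVB/N to -0.10 without lymphoma mouse 5 and -0.28 without those arrays; with 1 mouse left out its highest values were 2.65 and 3.38. Cxcr6 between organs turned to 0.094 within batch B. The cause of these changes was not tested. How far probe signals lay over background was not analysed here.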
